A study of Mus musculus with 7 samples.

Results

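Cd274, Serpinb9 and Il18bp are 3 of the 13587 genes listed in the deposited tables, taken by their exact gene symbols, and each was listed in all 6 tables. Cd274 encodes PD-L1, Serpinb9 a serpin that inhibits granzyme B, and Il18bp the secreted interleukin 18 binding protein. They were followed by polyA RNA sequencing in 1 stable clone derived from B16, a melanoma line of C57BL/6 mice. Cells lifted from the flask spent 5 h in 10 nM mouse recombinant interferon gamma (IFNγ) or in medium alone (mock), were rinsed 3 times, and were replated at 35000 per well. The 7 groups are untreated-labelled cells at time 0 (T0), the IFNγ pulse at 23.5, 48 and 91 h, and the mock pulse at the same 3 times. The zero point of the clock and the earlier handling of the T0 cells are not given in the labels, and every value comes from this clone. Each group is a single sample in the labels, yet its deposited mean behaves as that of 2 libraries of whole reads, and the reads of both could be recovered. Whether they were separate cultures is not said. The p-values thus cover the spread between 2 libraries, and that spread may be technical.

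PD-L1 is a surface ligand that dampens T cells through their receptor PD-1, and its gene is a classical target of interferon signalling in tumour cells. Granzyme B is the serine protease that T cells and natural killer cells deliver into a target cell through perforin, and mouse Serpinb9, also called SPI-6, blocks it inside the cell that makes the serpin. Interleukin 18 is a cytokine that drives those same lymphocytes to make IFNγ, and its binding protein is a soluble decoy that keeps it from its receptor. IFNγ acts through its receptor chains and the kinases JAK1 and JAK2, and GAS elements lie near many of its target genes. It also raises IRF1, a transcription factor that binds elements of the ISRE type.

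The start regions of the 3 genes are shown because both kinds of element are described near interferon target genes. They are from RefSeq on GRCm38.p6, 250 bases before to 50 after the annotated start, on the gene's own strand. Capitals mark a match to the ISRE letters searched, which are GAAA, any 2 bases and GAAA again, on either strand. The GAS, TTCNNNGAA, which reads the same on both strands, was also searched.
Cd274: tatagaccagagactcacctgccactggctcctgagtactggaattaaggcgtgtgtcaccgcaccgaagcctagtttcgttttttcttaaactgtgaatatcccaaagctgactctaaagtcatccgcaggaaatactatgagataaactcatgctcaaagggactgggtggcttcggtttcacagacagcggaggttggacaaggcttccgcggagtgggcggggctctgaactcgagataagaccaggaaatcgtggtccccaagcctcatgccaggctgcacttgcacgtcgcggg
Serpinb9: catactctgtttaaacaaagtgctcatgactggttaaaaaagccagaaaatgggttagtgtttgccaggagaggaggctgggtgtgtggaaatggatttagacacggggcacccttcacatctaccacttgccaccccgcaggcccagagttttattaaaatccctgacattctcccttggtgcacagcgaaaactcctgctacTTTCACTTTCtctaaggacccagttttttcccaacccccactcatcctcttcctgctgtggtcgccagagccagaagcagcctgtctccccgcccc
Il18bp: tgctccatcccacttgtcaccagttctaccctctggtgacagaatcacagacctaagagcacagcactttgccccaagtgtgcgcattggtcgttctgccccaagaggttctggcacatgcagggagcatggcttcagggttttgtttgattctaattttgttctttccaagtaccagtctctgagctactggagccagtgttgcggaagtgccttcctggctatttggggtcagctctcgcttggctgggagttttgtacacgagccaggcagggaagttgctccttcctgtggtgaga

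The window of Serpinb9 (chr13:33004291-33004590, plus strand) held 1 ISRE match on the minus strand, which begins 46 bases before the annotated start. The windows of Cd274 (chr19:29367188-29367487, plus strand) and Il18bp (chr7:102018183-102018482, minus strand) held 0. None of the 3 windows held the GAS letters. Of 32851 RefSeq windows of 300 bases, 3.44% held the ISRE letters and 8.30% the GAS letters. A missing match says only that these letters are not in this window, and for Serpinb9 and Il18bp the RefSeq start lies 1291 and 458 bases inside the GENCODE M21 gene.

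In GENCODE M21 on GRCm38, Cd274 (ENSMUSG00000016496) spans chromosome 19 from 29367455 to 29388095, Serpinb9 (ENSMUSG00000045827) chromosome 13 from 33003250 to 33017957, and Il18bp (ENSMUSG00000070427) chromosome 7 from 102014885 to 102018690. All are protein coding. The strand setting of the authors' counting is not given in the sources used here, so reads from an overlapping antisense gene could not be told apart. Cd274 shares 511 exon bases (14.1% of its own) with the antisense gene AC119228.1, which was not listed in any table. Il18bp shares 80 exon bases (2.64%) with Numa1, which stood between 3480 and 4734 normalised reads in the 7 groups. Of the 50-base words in Cd274 transcripts 12.4% also occur in transcripts of another gene, 10.4% in those of AC119228.1, so of the 3 its count is the most exposed to such sharing. The share was 0.968% for Il18bp, in each case with Numa1, and 0.378% for Serpinb9, in each case with Serpinb9b.

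Levels below are the authors' group means, put on 1 scale through the T0 column that all 6 tables share and called normalised reads. SDs are over the 2 recovered libraries. Libraries were numbered within a group by size factor, largest first, so the number pairs no libraries. Recovered depth was 12894823 reads in the shallowest library and 23220566 in the deepest. The 2 IFNγ libraries at 48 h stood apart from each other: of 5848 genes between 100 and 1000 normalised reads, 207 (3.54%) differed at least 2-fold between them, against at most 4 genes in any other group. All 7 melanocyte markers were listed in every group, from Mlana to Sox10, with summed levels between 368325 and 549417. Their sum was higher with IFNγ than with mock at each time, at 549417 against 425041 (23.5 h), 495180 against 372753 (48 h), then 475420 against 450044 (91 h). Of 12 markers of T and natural killer cells 1 was listed (Lck), of 12 myeloid and dendritic markers 2 (Cd68 and Lyz2), of 8 fibroblast markers 5, of 5 endothelial markers 1 (Vwf), and of B cell and keratinocyte markers 0. The fibroblast markers summed to between 282 and 515, and Vwf lay between 166 and 933, in the 7 groups. The leukocyte markers Ptprc, Cd3e and Itgam were not listed in any table. As these are bulk samples, a change in the share of cells that express a gene cannot be told apart from a change in the RNA per cell.

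Cd274 transcripts stood above T0 at every later time whether or not the cells had met IFNγ, were highest at 48 h in both arms, and were higher after the pulse than after mock. In T0 the 2 libraries held 172 and 153 normalised reads. In mock libraries there were 234 and 202 (23.5 h), 916 and 706 (48 h), then 625 and 702 (91 h). In IFNγ libraries there were 775 and 748 (23.5 h), 1577 and 1914 (48 h), then 1074 and 1073 (91 h). At each time both IFNγ libraries lay above both mock libraries, and T0 lay below all others. The mock level at 23.5 h was 1.34-fold of T0, which did not pass the authors' test (DESeq adjusted p = 0.26).

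The group levels of Cd274 were 762 ± 18.9 with IFNγ against 218 ± 22.7 with mock at 23.5 h (SD, n = 2 each), a 3.49-fold ratio. They were 1745 ± 238 against 811 ± 148 at 48 h, a 2.15-fold ratio, and 1074 ± 0.930 against 664 ± 54.7 at 91 h, a 1.62-fold ratio. The SD of 0.930 is below the counting error of the 974 and 873 reads behind it and cannot stand for the spread. The order from high to low was IFNγ 48 h, IFNγ 91 h, mock 48 h, IFNγ 23.5 h, mock 91 h, mock 23.5 h and T0. Only mock 48 h and IFNγ 23.5 h, neighbours in that order, had overlapping libraries. By 48 h mock cells thus stood at the level that pulsed cells had shown at 23.5 h.

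Serpinb9 started high in the pulsed cells and drew closer to mock from both sides. The T0 libraries held 128 and 157 normalised reads. Mock libraries held 125 and 125 (23.5 h), 204.3 and 209.5 (48 h), then 229 and 235 (91 h). IFNγ libraries held 588 and 606 (23.5 h), 338 and 726 (48 h), then 400.3 and 383.4 (91 h). Every IFNγ library lay above every mock and T0 library, while the 2 IFNγ libraries at 48 h spanned more than the whole range of the other IFNγ libraries.

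The group levels of Serpinb9 were 597 ± 12.5 against 125 ± 0.309 at 23.5 h (4.77-fold), 532 ± 274 against 207 ± 3.68 at 48 h (2.57-fold), and 391.9 ± 11.95 against 232 ± 3.64 at 91 h (1.69-fold; SD, n = 2 each). The order ran IFNγ 23.5 h, 48 h and 91 h, then mock 91 h and 48 h, T0, and mock 23.5 h. IFNγ 48 h overlapped both its neighbours. The mock 23.5 h libraries lay just below the lower T0 library. Their SD of 0.309 is below the counting error of the 132 and 128 reads behind it.

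Il18bp was the one of the 3 genes whose IFNγ and mock libraries overlapped at 91 h. The T0 libraries held 37.3 and 38.2 normalised reads, from 41 and 35 reads. Mock libraries held 28.42 and 28.43 (23.5 h), 11.97 and 13.71 (48 h), then 25.1 and 16.9 (91 h). IFNγ libraries held 217.6 and 217.6 (23.5 h), 54.6 and 500.5 (48 h), then 16.5 and 19.7 (91 h). The IFNγ and mock libraries did not overlap at 23.5 or 48 h and did so at 91 h.

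The group levels of Il18bp were 218 ± 0.0297 against 28.4 ± 0.00712 at 23.5 h (SD, n = 2 each), a 7.66-fold ratio. An SD that small is below the counting error of the 29 to 242 reads behind these libraries and cannot stand for the spread. At 48 h the levels were 278 ± 315 against 12.8 ± 1.23, and the 2 IFNγ libraries lay 4.25-fold and 39.0-fold above the mock level. At 91 h they were 18.1 ± 2.21 against 20.99 ± 5.85, from 12 to 23 reads per library. The order ran IFNγ 48 h, IFNγ 23.5 h, T0, mock 23.5 h, mock 91 h, IFNγ 91 h and mock 48 h, with overlap between the first pair and between mock 91 h and IFNγ 91 h.

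**Figure D1:**
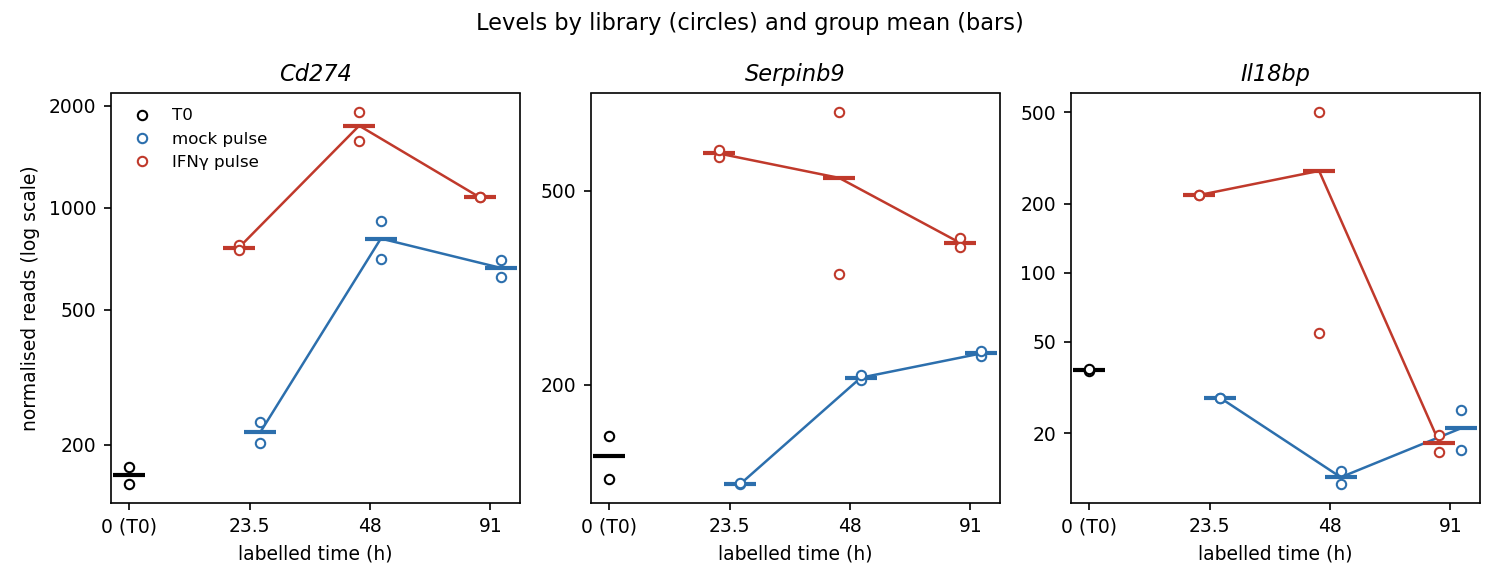
Normalised reads (log axis) of each gene by labelled time in h, with a circle for each of the 2 libraries and a bar for the group mean, in T0, mock and IFNγ groups. Cd274 is highest at 48 h in both arms, Serpinb9 converges from both sides (597 to 391.9 with IFNγ, 125 to 232 with mock), and the IFNγ libraries of Il18bp overlap with mock at 91 h, while the 2 IFNγ libraries at 48 h lie far apart for Serpinb9 and Il18bp.

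The test of IFNγ against mock asks whether a passing exposure is still visible in these genes hours to days later. At each time limma took the 4 libraries as log2(normalised reads + 1), over all genes with at least 20 normalised reads in either group, with Benjamini-Hochberg adjustment, two-sided. At 23.5 h all 3 genes were higher with IFNγ, where 8.55% of 12450 genes tested were higher and 6.06% lower at an adjusted p under 0.05. Cd274 was higher by 1.80 on the log2 scale (SE 0.09, limma adjusted p = 2.9e-08), Serpinb9 by 2.24 (SE 0.09, limma adjusted p = 3.7e-09) and Il18bp by 2.89 (SE 0.15, limma adjusted p = 8.5e-08). The SE of 0.15 for Il18bp is below the counting error of the 29 to 242 reads behind it. In 1 fit over all 14 libraries Il18bp missed the threshold, with a limma adjusted p = 0.057. With equal library totals in place of the T0 scale the genes passing split into 917 higher and 978 lower, against 1065 and 755.

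At 48 h the differences were 1.11 for Cd274 (SE 0.18, limma adjusted p = 0.34), 1.26 for Serpinb9 (SE 0.37, limma adjusted p = 0.60) and 3.60 for Il18bp (SE 1.01, limma adjusted p = 0.57). None passed. limma passed 0 of 12651 genes at this time (0.00%), with 505 higher (3.99%) and 342 lower (2.70%) at an unadjusted p under 0.05, and the fit over all 14 libraries passed 705. Without IFNγ library 1 the differences became 1.25, 1.81 and 5.18, and without IFNγ library 2 they became 0.97, 0.70 and 2.01. In each case the remaining IFNγ library takes its spread from the mock libraries. Which of these libraries stands for the group cannot be said from 2.

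At 91 h Cd274 was still higher, by 0.70 (SE 0.07, limma adjusted p = 9.0e-06), and so was Serpinb9, by 0.75 (SE 0.10, limma adjusted p = 9.6e-05), where 8.75% of 12433 genes were higher and 7.52% lower. Il18bp stood at -0.18 (SE 0.36, limma adjusted p = 0.78), which an SE of that size cannot separate from a moderate change in either direction. Cd274 missed the threshold in limma without a variance trend (adjusted p = 0.056) and Serpinb9 in the fit over all 14 libraries (limma adjusted p = 0.18). The myeloid marker Cd68 was also higher at 91 h, at 97.1 normalised reads against 35.0 (1.49, limma adjusted p = 9.9e-04). Its list of 12 markers summed to 97.1 with IFNγ and 35.0 with mock there, with Ptprc and Itgam not listed, and its part in the result was not tested. Lck, the T cell kinase, was higher at 23.5 h, at 63.1 against 35.1, with Cd3e not listed. At 91 h Lck stood at 116 with IFNγ and 130 with mock, against 25.5 in T0, and its difference of -0.15 did not pass. At 23.5 h the endothelial marker Vwf (0.53, limma adjusted p = 0.0022) and the fibroblast marker Acta2 (1.66, limma adjusted p = 0.0012) were also higher and Pdgfrb was lower (-0.40, limma adjusted p = 0.037), and at 91 h Col1a1 was lower (-0.97, limma adjusted p = 0.023). Of 4 melanocyte markers tested 2 were higher at 23.5 h (Tyr and Mitf), against 8.55% of all genes tested. At 91 h all 4 were higher, by 0.15 to 0.36, against 8.75%. The part of these markers in the results was not tested either.

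**Figure D2:**
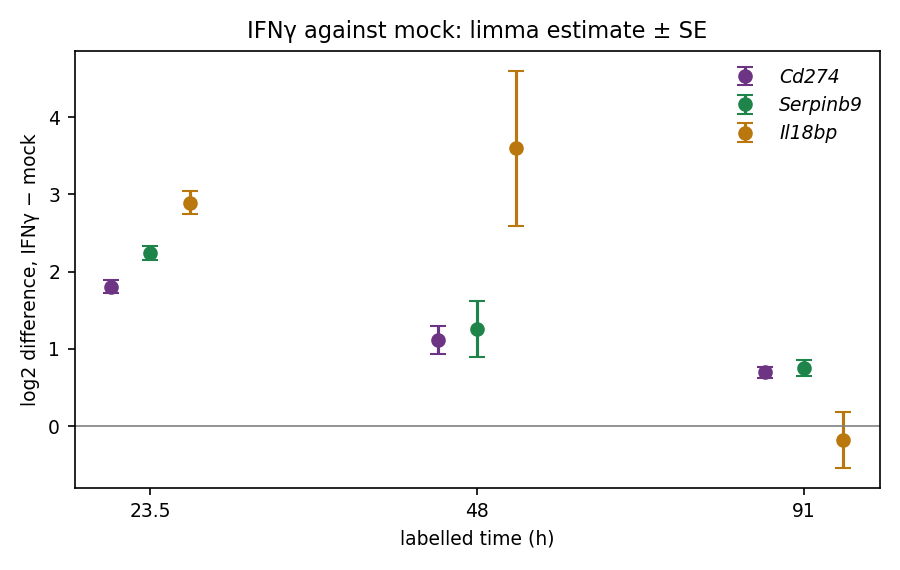
Log2 difference between IFNγ and mock (limma estimate, bars ± SE, 4 libraries per time) of each gene by labelled time in h. Estimates of Cd274 and Serpinb9 lie at 1.80 and 2.24 at 23.5 h and at 0.70 and 0.75 at 91 h, while Il18bp goes from 2.89 to -0.18 and has the widest bar at 48 h.

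The difference between IFNγ and mock shrank from 23.5 to 91 h for all 3 genes. In limma's interaction of pulse and time over 8 libraries, where the signed difference went down at 5.35% of 12511 genes and up at 3.94%, the change was -1.11 for Cd274 (SE 0.12, limma adjusted p = 2.8e-05), -1.49 for Serpinb9 (SE 0.12, limma adjusted p = 2.4e-06) and -3.08 for Il18bp (SE 0.34, limma adjusted p = 5.1e-05). In the fit over all 14 libraries Serpinb9 (limma adjusted p = 0.092) and Il18bp (limma adjusted p = 0.26) missed the threshold.

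The arms that make up this change differed between the genes. In pulsed cells Cd274 rose from 23.5 to 91 h by 0.49 (SE 0.06, limma adjusted p = 3.2e-06), against 35.2% of 12493 genes higher and 36.7% lower. In mock cells it rose by 1.60 (SE 0.10, limma adjusted p = 7.1e-08), against 34.6% of 12481 genes higher and 35.7% lower. Its ratio thus narrowed while both arms were higher at 91 h than at 23.5 h. Serpinb9 fell by 0.61 in pulsed cells (SE 0.07, limma adjusted p = 5.6e-06) and rose in mock cells by 0.88 (SE 0.12, limma adjusted p = 4.4e-05). Its fall missed the threshold in the fit over all 14 libraries (limma adjusted p = 0.060). Il18bp fell by 3.52 in pulsed cells (SE 0.19, limma adjusted p = 1.1e-09), to 8.32% of its level at 23.5 h, and stood at -0.45 in mock cells (SE 0.31, limma adjusted p = 0.21). With 70.3% of all genes passing in mock and 72.0% in pulsed cells, a passing difference between these times is common. In mock cells 2.36% of genes had a larger estimate than Cd274, 8.57% than Serpinb9 and 75.6% than Il18bp. In pulsed cells 18.6% had a larger one than Cd274, 82.2% than Serpinb9 and 98.5% than Il18bp.

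The authors' own test compared each group with T0, so the 6 comparisons share the T0 libraries and are not independent. In the authors' deposited table for mock at 23.5 h none of the 3 genes passed an adjusted p of 0.05, with Cd274 at 1.34-fold of T0 (adjusted p = 0.26), Serpinb9 at 0.877-fold (adjusted p = 0.94) and Il18bp at 0.753-fold (adjusted p = 0.90). There 3.72% of 12905 genes were higher and 1.93% lower. By the authors' deposited table for mock at 48 h, Cd274 was 4.99-fold above T0 (DESeq adjusted p = 8.1e-50), Serpinb9 1.45-fold above (DESeq adjusted p = 0.026) and Il18bp 2.94-fold below (DESeq adjusted p = 0.018), against 25.6% of genes higher and 25.0% lower. By the authors' deposited table for mock at 91 h, Cd274 was 4.09-fold (DESeq adjusted p = 1.5e-41) and Serpinb9 1.62-fold above T0 (DESeq adjusted p = 0.0018), and Il18bp, 1.80-fold below, did not pass (DESeq adjusted p = 0.21), against 30.2% of genes higher and 30.2% lower.

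With IFNγ at 23.5 h the authors' deposited table gave 4.69-fold over T0 for Cd274, 4.18-fold for Serpinb9 and 5.76-fold for Il18bp, all past the threshold (largest DESeq adjusted p = 1.7e-21), against 11.5% of genes higher and 8.31% lower. At 48 h the authors' deposited table gave 10.7-fold, 3.72-fold and 7.35-fold (largest DESeq adjusted p = 8.3e-15), against 24.1% higher and 21.4% lower. At 91 h the authors' deposited table gave 6.61-fold for Cd274 (DESeq adjusted p = 1.6e-101) and 2.74-fold for Serpinb9 (DESeq adjusted p = 6.4e-14), against 31.9% higher. Il18bp was then 2.09-fold below T0 in the authors' deposited table, which did not pass (DESeq adjusted p = 0.079), against 30.6% lower. The authors' p-values for IFNγ at 48 h come from 2 libraries that lay 9.17-fold apart for Il18bp and 2.15-fold apart for Serpinb9.

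Other genes of surface and secreted molecules that act on lymphocytes or phagocytes were taken from a list by role. It was made for inhibitory molecules but also holds costimulatory ligands such as Icosl. Of the 26 symbols on the list 12 were listed in the data and 10 tested at 23.5 h. There 3 were higher and 0 lower, against 8.55% and 6.06% of all genes tested, with a median of 0.10 against 0.00. H2-T23, the heavy chain of Qa-1, which the lymphocyte receptor NKG2A reads, stood at 934 normalised reads against 32.1 and was higher by 4.95 (SE 0.28). Class I genes are alike in sequence, so its count is uncertain. Lgals9, which encodes galectin-9, was higher by 0.92, at 3993 against 2107 normalised reads, and Cd47, the signal that holds phagocytes off, by 0.51, at 1608 against 1132. The estimates of Cd276 (0.04), Pvr (0.13), Pvrl2 (0.02), Tgfb1 (0.07), Tgfb2 (-0.12), Ceacam1 (-0.21) and Icosl (0.28) did not pass. Neither Pdcd1lg2, the gene of the other PD-1 ligand, nor Ido1 was listed.

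At 91 h 2 of 10 such genes were higher and 1 lower, against 8.75% and 7.52% of all genes tested, with a median of -0.01 against 0.00. H2-T23 was higher by 1.79 and Lgals9 by 0.21, while Pvrl2, which encodes nectin-2, stood at -0.57, lower than mock. Cd47 rose in both arms to 2953 and 2885 normalised reads and its difference of 0.03 did not pass. At 48 h 0 of 10 passed, where 0 of all 12651 genes passed, with a median of 0.01 against -0.01. H2-T23, at 3691 normalised reads with IFNγ and 227 with mock, was not tested at 48 h. Tnfrsf14, which encodes HVEM, the ligand of BTLA, was listed at 89.7 with IFNγ at 23.5 h and 31.8 at 91 h, and was not listed for mock at those times. Tnfrsf14 was thus tested only at 48 h, with a difference of 1.82 (SE 0.54).

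Of the relatives of Serpinb9 in serpin clade B, 4 were listed. At 23.5 h 1 of 4 tested was higher, against 8.55% of all genes tested, and at 91 h 1 of 3, against 8.75%. At 48 h 0 of 4 passed, where 0 of all 12651 genes passed. The medians were 0.22, 0.59 and 0.33 in order of time, against 0.00, -0.01 and 0.00 for all genes tested. Serpinb8 was higher at 23.5 h by 0.92 (SE 0.15, 215 against 115 normalised reads), and Serpinb6b at 91 h by 0.92 (SE 0.28, 49.5 against 25.2). Serpinb6a lay between 1503 and 2293 normalised reads in the 7 groups and did not pass at any time. Serpinb9b, the closest copy, held 26.1 against 21.3 at 23.5 h and 50.2 against 7.83 at 48 h, did not pass, and was not listed at 91 h. The granzyme and perforin genes Gzma, Gzmb, Gzmc, Gzmk and Prf1 were not listed.

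Interleukin 18 itself and the proteins that release it were also read. Il18 stood at 73.4 normalised reads against 33.2 at 23.5 h and was higher by 1.11 (SE 0.21, limma adjusted p = 0.0048), and at 91 h its difference of 0.55 did not pass. The level of Il18 with IFNγ at 91 h was 84.4 normalised reads. Of 10 genes of this axis 5 were listed and 4 tested, with 3 higher at 23.5 h (median 1.33), 0 passing at 48 h (median 0.49), and 2 higher and 1 lower at 91 h (median 0.73). Over all genes tested 8.55% were higher and 6.06% lower at 23.5 h, 0 of 12651 passed at 48 h, and 8.75% were higher and 7.52% lower at 91 h. The medians were 0.00, -0.01 and 0.00 in order of time. Gsdmd, whose product forms the pore through which the cytokine leaves, was higher by 1.80 at 23.5 h and 0.90 at 91 h. Pycard, the inflammasome adaptor, was higher by 0.92 at 91 h, at 74.0 against 38.6. Casp4, an inflammatory caspase, was higher by 1.55 at 23.5 h and lower at 91 h, with -0.40, in groups that had climbed to 1031 and 1358 reads. Casp1, the enzyme that cuts the precursor, was listed at 20.01 for IFNγ at 91 h and not for mock, and the receptor genes Il18r1 and Il18rap were not listed.

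Genes of IFNγ signalling, taken from a list by role, were read in the same fits. Of 11 such genes listed and tested 6 were higher at 23.5 h and 3 at 91 h, with 0 lower at either time, and 0 passed at 48 h. Of all genes tested 8.55% were higher at 23.5 h and 8.75% at 91 h, and 0 of 12651 passed at 48 h. Their medians were 0.26, 0.19 and 0.16 in order of time, against 0.00, -0.01 and 0.00 for all genes tested. Irf1 was higher by 2.46 at 23.5 h (2673 against 486 normalised reads) and by 0.69 at 91 h (919.5 against 567). Mock cells at 48 h held 1473 normalised reads of Irf1, against 499 in T0. Stat2, which joins Irf9 in a complex that binds the ISRE, was higher by 2.35 at 23.5 h (2308 against 454) and by 0.50 at 91 h (3247 against 2299.7). Jak2 was higher by 0.19 at 23.5 h, Socs1, the feedback inhibitor, by 1.67, and Jak1, Ifngr1 and Ifngr2 did not pass at any of the 3 times. Cmtm6 and Cmtm4, whose products keep PD-L1 at the surface, stood between 1251 and 2623 in all groups, and none of their differences passed.

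**Figure D3:**
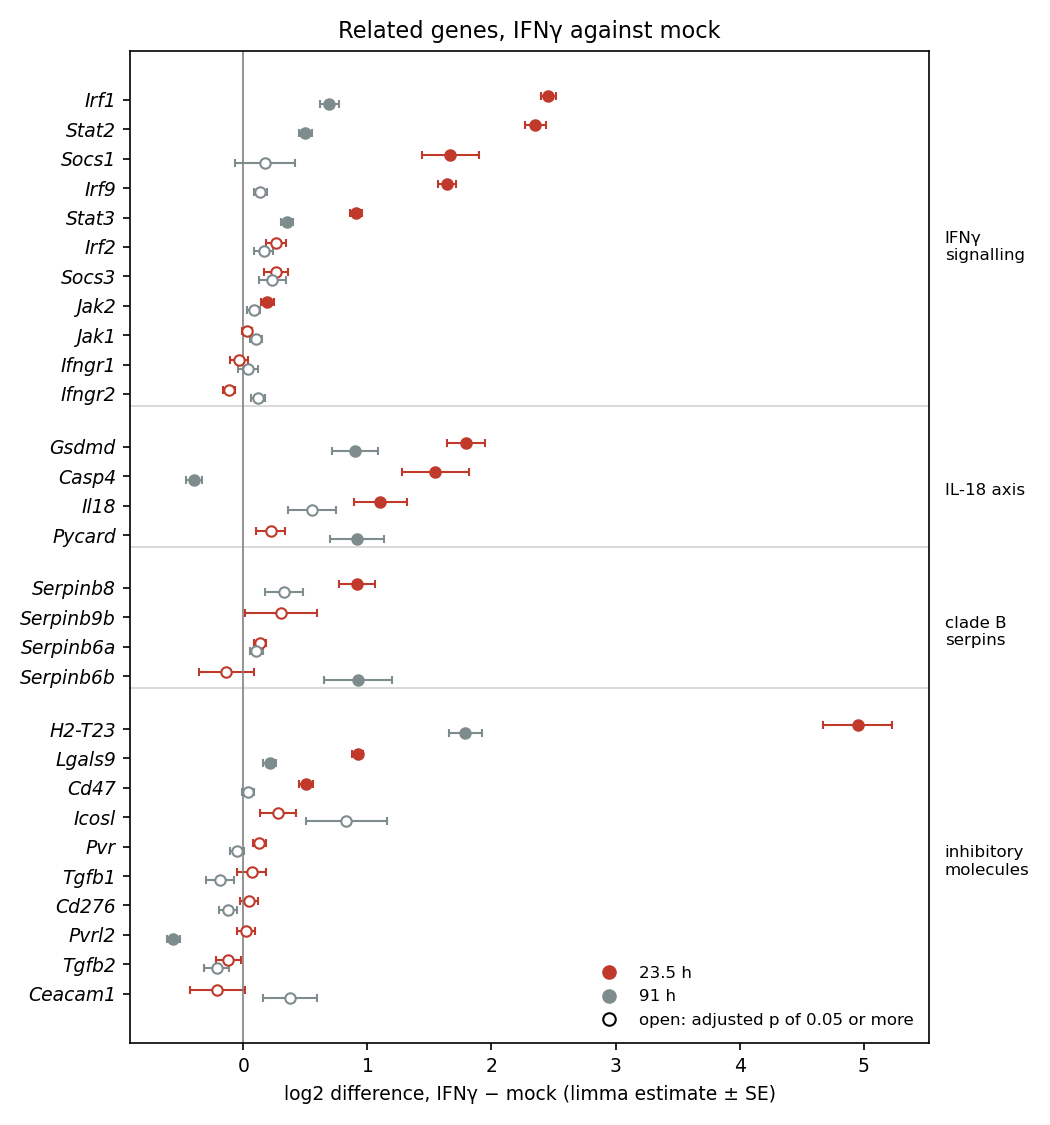
Log2 difference between IFNγ and mock (limma estimate, bars ± SE) of related genes at 23.5 h and 91 h, with filled points at an adjusted p under 0.05 over all genes tested. H2-T23 has the highest estimate of the plotted genes at 23.5 h (4.95), and Casp4 and Pvrl2 lie below 0 at 91 h.

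The genes whose levels ran most like each of the 3 were sought among 3175 genes listed in all 7 groups, with at least 100 normalised reads in one of them and a 2-fold range. Pearson's r of log2(level + 1) over the 7 groups describes these groups, which share the T0 scale, and carries no p. Cd274 ran most like Slfn8 (r = 0.991), Sp140 (0.990), Dtx3l (0.990), Trim5 (0.989) and Phf11d (0.988). Slfn8, Sp140, Dtx3l and Phf11d are known as interferon-inducible genes, and each of the 5 had a higher level in mock cells at 48 h than in T0. Phf11d, for example, held 50.6 reads in mock cells at 23.5 h and 655 at 48 h, and 34.8 in T0.

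Serpinb9 ran most like Nlrc5 (0.995), Idnk (0.979), Ifi47 (0.977), Iigp1 (0.969) and Psme1 (0.969). Nlrc5 is the transactivator of class I genes, Ifi47 and Iigp1 are interferon-inducible GTPase genes, and Psme1 encodes a proteasome activator subunit. Il18bp had looser neighbours in Tvp23a (0.919), Tmco4 (0.913), Brca1 (0.906), Mlkl (0.897) and Psmb10 (0.894). Psmb10, an immunoproteasome subunit gene, went from 2959 reads with IFNγ at 23.5 h to 332 at 91 h, against 283 and 269 in mock cells. Among the 3 genes themselves r was 0.831 for Cd274 and Serpinb9, 0.673 for Serpinb9 and Il18bp, and 0.329 for Cd274 and Il18bp. Each r of Il18bp rests on uncertain means. Its IFNγ libraries at 48 h held 54.6 and 500.5 normalised reads, and its mock and 91 h libraries 12 to 30 reads.

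**Figure D4:**
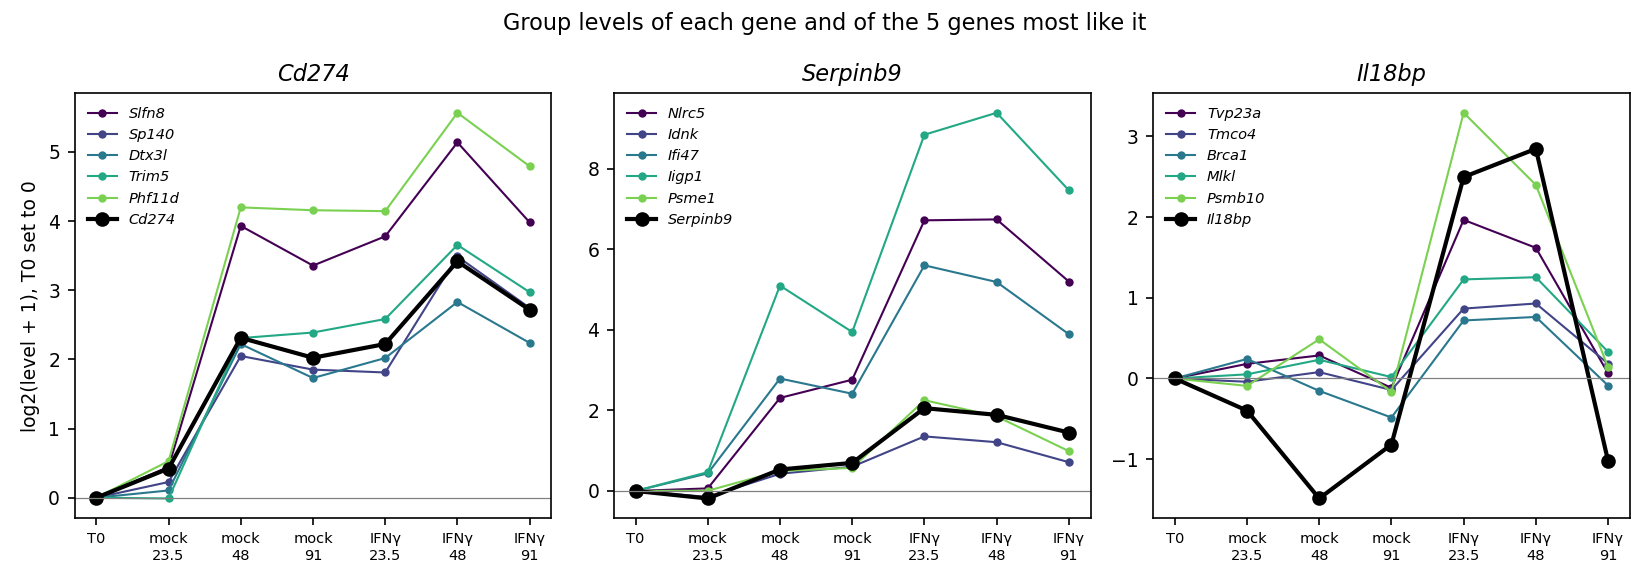
Log2(level + 1) of each of the 3 genes (black) and of the 5 genes most like it (colours) in the 7 groups, with the T0 value set to 0 and times in h. The mock groups at 48 and 91 h lie well above T0 for Cd274 and its neighbours. Il18bp and its neighbours lie above T0 mainly in the IFNγ groups at 23.5 and 48 h. In the mock groups and with IFNγ at 91 h Il18bp itself lies below T0, lowest in mock at 48 h (12.8 against 37.8 normalised reads).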

How the data were processed

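PolyA RNA of 7 groups of B16 cells was read from 6 tables, each of T0 and 1 other group. DESeq, HTSeq 0.5.3, Picard 1.124 and STAR 2.5.0a, with the builds GRCm38 and mm10, are named in the submitters' processing notes. Not given in the sources used here are their roles, the annotation and the strand setting. The deposited signal is a mean per group and gene, which behaves as reads over size factors. The deposited log2 column is T0 over the group, turned here, and the deposited p-values and adjusted p are the authors'. In 5 of the tables, entries that name no gene, 4 in each, held a large share of the reads (57.1% to 70.3% of the group total) and were left out. The unused value columns numbered 0.

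Reads of 2 libraries were recovered as the only whole-number pair that gives each mean, for 99.6% of 157036 values. A pair had to lie within 1.2 times the rounding error of 10 digits, and from a level of 3000 the libraries within a log2 ratio of 2. T0 reads of a gene never conflicted between tables. The levels were scaled by the median T0 ratio, which puts IFNγ and mock, normalised separately by the authors, on 1 scale. Tests used limma 3.58.1 in R 4.3.3 with a variance trend and a pseudocount of 1, which understates changes of low genes, and genes of at least 20 normalised reads. Both steps were also run on simulated data. The simulation of the limma step capped the spread of each gene. It therefore does not cover genes whose IFNγ libraries at 48 h lay far apart. Other software was Python 3.11.15, numpy 2.4.6, pandas 2.3.3 and matplotlib 3.10.9. SDs and SEs of low genes can lie below counting error, as those of Il18bp did at 23.5 h, and p-values are then too small. Alternatives were the pseudocount, the filter, the scale, the trend, 1 fit over all libraries and leaving out each library. The genes, lists and tests were chosen with earlier results of these data known. 1 signalling gene is not reported here. Named genes are the 3, the listed members of the lists by role, and the 5 most alike by r.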

Additional observations from a re-analysis of the deposited data

Results flagged for a closer look

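The IFNγ effect of each of the 3 genes differed between 23.5 and 91 h by limma's interaction test, by -1.11 on the log2 scale for Cd274, -1.49 for Serpinb9 and -3.08 for Il18bp. Both arms are needed to read these values: the mock level of Cd274 went from 218 to 664 normalised reads and that of Serpinb9 from 125 to 232, while that of Il18bp was 28.4 and then 20.99.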

How the results depend on the processing

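Of 208 recomputed values for the 3 genes 192 kept their direction and side of the threshold. In the fit over all libraries these missed it: Il18bp at 23.5 h (2.89, limma adjusted p = 0.057), Serpinb9 at 91 h (0.75), Serpinb9 from 23.5 to 91 h with IFNγ (-0.61), and the change of effect of Serpinb9 (-1.49) and Il18bp (-3.08). At 48 h that fit passed Cd274 (1.11, limma adjusted p = 0.0013), Serpinb9 (1.26, limma adjusted p = 0.017) and Il18bp (3.60, limma adjusted p = 0.015). Without a trend Cd274 at 91 h (0.70) missed it. Without mock library 1 Il18bp at 91 h turned to 0.092, not passing.

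Leaving out 1 library at 48 h gave 0.92 to 1.30 for Cd274, 0.70 to 1.81 for Serpinb9 and 2.01 to 5.18 for Il18bp, and passed 4 to 3285 genes. At 91 h Il18bp ranged from -0.46 to 0.092. Passing genes numbered 1820 at 23.5 h, 380 without a trend, 322 over all libraries and 998 to 2158 with 1 library left out (998 and 1023 without IFNγ library 1 or 2). At 48 h they numbered 705 over all libraries. At 91 h they were 2023, then 107, 174 and 944 to 1934 (944 without IFNγ library 1). For the change of effect they were 1162, then 345, 148 and 580 to 1094. The cause was not tested. No paired analysis was possible because library numbers come from size factors and pair nothing. With 12 to 30 reads, Il18bp in mock and late IFNγ libraries allows only wide estimates.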

Other observations

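Lists of other cytokine receptors and decoys and of genes of cell death and survival were read in the same fits. Il15ra, the receptor chain that presents interleukin 15, stood at 32.9 normalised reads with IFNγ and 9.64 with mock at 23.5 h (1.67, limma adjusted p = 0.0042). Tnfrsf11b, which encodes the decoy receptor osteoprotegerin, stood at 264 against 207 at 23.5 h (0.34) and 185 against 105 at 91 h (0.81), and passed limma at both times. The list of receptors and decoys includes signalling receptors such as Tnfrsf1a, so its counts are not counts of decoys alone. Of its 5 listed genes 3 were higher at 23.5 h (median 0.15), Il15ra, Tnfrsf1a and Tnfrsf11b. At 48 h 0 passed (median 0.60), where 0 of all 12651 genes passed, and at 91 h 1 of 4 tested was higher (median 0.40). Over all genes tested 8.55% were higher and 6.06% lower at 23.5 h and 8.75% and 7.52% at 91 h, with medians of 0.00, -0.01 and 0.00 in order of time.

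Of 9 listed genes of the death receptor and mitochondrial routes 8 were tested. The list holds protective genes and also the death receptor genes Fas, which was not tested, and Tnfrsf10b. At 23.5 h 2 were higher and 0 lower (median 0.12), against 8.55% and 6.06% of all genes tested. At 48 h 0 passed (median 0.10), where 0 of all 12651 genes passed. At 91 h 1 was higher and 1 lower (median -0.01), near the shares over all genes of 8.75% and 7.52%. Cflar, whose product c-FLIP blocks caspase-8 at death receptors, was higher by 0.50 at 23.5 h (3079 against 2171) and by 0.23 at 91 h (4987 against 4252). Bcl2l1 was higher by 0.19 at 23.5 h, and Bcl2 was lower at 91 h, with -0.35, at 1601 against 2046.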
